A study of Mus musculus with 13 samples.

Results

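The untreated NIH3T3 culture was compared with the untreated WT culture of mouse embryonic fibroblasts (MEFs), to describe which proteins the 2 fibroblast cultures translated before any stress. The members are the genes with at least 4 TPM (TPM is a footprint density corrected for coding length and scaled to a fixed total in each library) in at least 1 of these 2 libraries. They numbered 9862 of the 22406 symbols in the tables joined by symbol, and 8131 of them reached 4 TPM in both libraries, 871 in NIH3T3 only and 860 in WT MEFs only. The lowest value that let a gene in was 4 TPM, and the highest value of a gene left out was 3.99 TPM.

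The series holds ribosome footprint libraries of 3 kinds of mouse fibroblasts, 1 library per condition. NIH3T3 is an established line of mouse embryo fibroblasts, labelled WT in genotype, with an untreated culture and cultures given thapsigargin (Tg, an inhibitor of the SERCA calcium pump that causes ER stress) for 2 and 7 h. PERK WT MEFs and PERK -/- MEFs, which lack the eIF2alpha kinase PERK (gene symbol Eif2ak3), each had an untreated culture and cultures given Tg for 1, 2, 5 and 8 h. NIH3T3 cells received a lower concentration of Tg than MEFs, and their late time differs, so treated libraries are set side by side only. The labels give no age, passage or clone for any culture. According to the methods, MEF medium was supplemented with non-essential amino acids and beta-mercaptoethanol and NIH3T3 medium was not, so that cell type and medium cannot be told apart here. No condition has a second library, so no test between cultures was possible and no replicate error exists. Intervals given below are exact 95% intervals of a ratio or a share of counts and cover counting error only. Intervals of list medians are taken over the genes of a list.

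Fibroblasts are the cells that build connective tissue. They secrete collagens and other matrix proteins, carry contractile actin bundles, and respond to growth factors that guide tissue growth and repair. Lines that grow without limit in culture usually carry a lesion in the Cdkn2a and p53 route, which halts the division of damaged or overgrown cells. Ribosome footprint profiling sequences the stretches of mRNA that ribosomes protect, so a footprint density combines the amount of an mRNA and how many ribosomes it holds. These libraries do not separate the 2 quantities, and in a whole culture fewer cells with a gene and less of it per cell cannot be told apart.

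The untreated libraries were close in depth, with 11121006 expected counts in NIH3T3 and 11949174 in WT MEFs, so 3 counts, the floor used for a gene without counts, equal 0.270 and 0.251 CPM (counts scaled to a library total). The treated NIH3T3 and WT MEF libraries held between 2525029 and 11178364 expected counts. As a measure of how far libraries can differ, the WT MEF libraries of 8 and 5 h differed at least 2-fold in 16 of 9470 genes (0.169%), so that they add little to each other. The untreated PERK-null and WT MEFs differed so in 835 of 9706 (8.60%) and the NIH3T3 libraries of 7 and 2 h in 1067 of 9535 (11.2%). Footprints of NIH3T3 and of MEFs stand in separate tables, each library scaled within itself by the authors, and levels are set across these tables.

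Untreated NIH3T3 and WT MEFs differed at least 2-fold, after values under 4 TPM had been raised to 4, in 2657 members (26.9%). NIH3T3 was higher in 1533 (15.5%) and WT MEFs in 1124 (11.4%). Counts for each gene list below are to be read beside both of these shares. With counts per library total in place of TPM the numbers were 1908 and 1039, so that 64.7% of the genes apart were higher in NIH3T3 in place of 57.7%. The log2 ratio of NIH3T3 over WT MEFs had a median of 0.05 and an SD over genes of 1.10, and 43.4% of the members lay within 0.5 of 0 on that scale. At 8-fold or more, 103 members were higher in NIH3T3 and 100 in WT MEFs. No footprint at all was counted in WT MEFs for 75 of the members higher in NIH3T3, and in NIH3T3 for 146 of those higher in WT MEFs. Spearman's rho of the TPM values of both libraries was 0.803 over the members, which are not independent replicates.

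**Figure D1:**
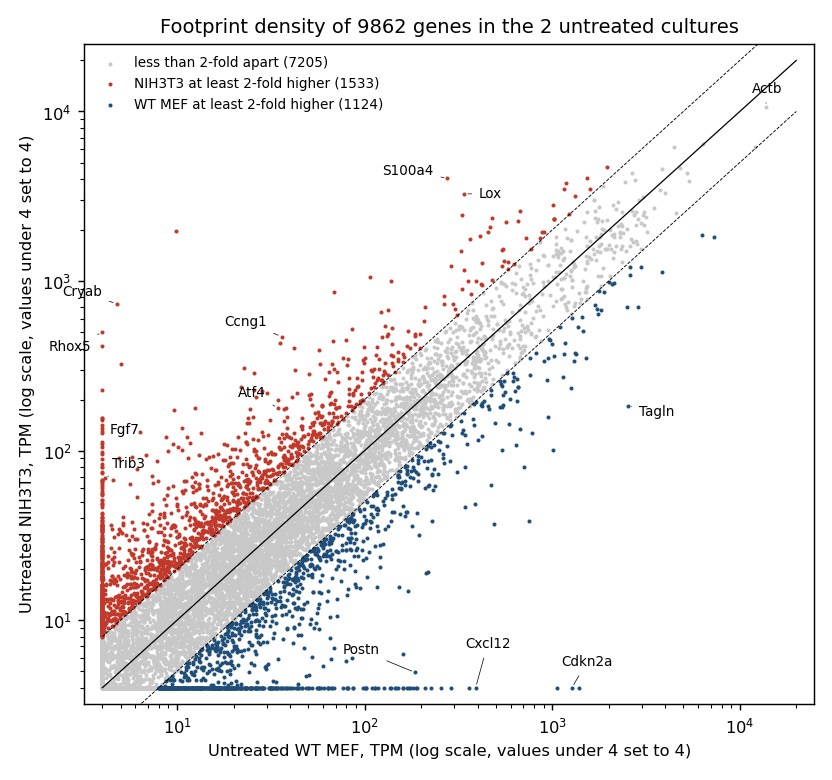
TPM of the 9862 members in untreated WT MEFs (x axis) and untreated NIH3T3 (y axis), both on log scales with values under 4 set to 4; each point is 1 gene, the solid line marks equality and the dashed lines a 2-fold difference. The 1533 red points lie at least 2-fold above equality and the 1124 blue points at least 2-fold below it, and genes at the floor of 1 culture line the left and lower edges, among them Cdkn2a at 1274 TPM in WT MEFs.

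The treated libraries took no part in choosing these genes. Of the 1533 genes higher in untreated NIH3T3, 92.4% were also higher in NIH3T3 at 2 h of Tg, and 54.6% still differed at least 2-fold. At the late time (7 h in NIH3T3, 8 h in WT MEFs) the shares were 86.2% and 51.7%. Of the 1124 genes higher in untreated WT MEFs, 96.2% kept that direction at 2 h and 93.5% late, with 70.7% and 63.5% at least 2-fold apart. Over all members the median log2 ratio was -0.10 at 2 h and -0.03 late. Among genes with at least 4 TPM in 1 of the treated libraries compared, NIH3T3 was at least 2-fold higher in 1401 of 10181 at 2 h. Late it was so in 1485 of 10125. WT MEFs were at least 2-fold higher in 1571 and 1637 of them. All 3 NIH3T3 values lay above all 5 WT MEF values for 1093 of the genes higher in NIH3T3 (71.3%), against 19.2% of all members, and below them for 937 of the genes higher in WT MEFs (83.4%), against 22.4% of all members. The controls are part of both of these counts.

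The most densely translated genes were largely shared. Of the 10 with the highest TPM in each untreated library, 6 were in both, namely Actb and Actg1 (cytoplasmic actins), Ppia (cyclophilin A), Eef1a1 (which brings tRNAs to the ribosome), Lgals1 (galectin-1) and S100a6 (a calcium-binding protein). Actb stood at 10628 TPM in NIH3T3 and 13771 TPM in WT MEFs, and Ppia at 6420.1 and 6391 TPM. Eef1a1 was denser in WT MEFs, at 12067 TPM against 6198 TPM, just short of a 2-fold difference (log2 -0.96). Among those in only 1 of the lists of 10, S100a4, a calcium-binding protein of motile fibroblasts, was at 4035 TPM in NIH3T3 and 276 TPM in WT MEFs. Ptma (prothymosin alpha) and Npm1 (nucleophosmin), both nuclear proteins of growing cells, were at 7263 and 6268 TPM in WT MEFs and 1808 and 1857 TPM in NIH3T3.

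Among genes with at least 100 counts in the untreated cultures, the 12 with the largest floored ratio in each direction mixed identifiable proteins with copies of other genes. In NIH3T3, Rhox5, an X-linked homeobox factor of the reproductive tract, measured 497, 573 and 432 TPM and stayed between 0 and 0.91 TPM in WT MEFs, with 3543 counts against 3 in the untreated libraries and a log2 ratio of counts of 10.31 (8.76 to 12.59). Cdsn (corneodesmosin, an adhesion protein of the outer skin) was at 228 against 0.4 TPM. Serpina3i, a protease inhibitor, and Ces2g, a carboxylesterase, were at 155 and 131 TPM with 0 counts in untreated WT MEFs, but both share sequence with neighbours of their families. In WT MEFs, Dpysl3, a regulator of the cytoskeleton in growth cones, was at 256 TPM against 1.84 TPM, and the unnamed gene Gm29779 at 189 against 0.53 TPM. Arl6ip1, an ER membrane protein found in most cells, was at 227 TPM in WT MEFs, 496 TPM in untreated PERK-null MEFs and listed at 0 in all 3 NIH3T3 libraries. Whether such an entry of 0 reflects the cells or the assignment of footprints was not tested. The histone Hist1h2bc, the largest ratio of all (log2 -8.44), and Gm14295 share 100% and 66.9% of their 25-base windows with other genes. Cryab, Hspb7, Cbr2, Fgf7, Mfap5, Ly6c1, Cdkn2a, Cxcl12, Grem1, Mcam and the copies Rpl34, Rpl34-ps1, Rpl29, Ahcy and Gm4737, which complete the lists of 12, are described below.

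Fibroblast markers were present in both cultures and differed by gene. The 15 fibroblast markers took 1.99% of the expected counts in untreated NIH3T3 and 2.04% in WT MEFs, and of the 12 members 5 were at least 2-fold higher in NIH3T3 (41.7%, against 15.5% of all members) and 2 in WT MEFs (16.7%, against 11.4%), with a median log2 ratio of 0.48. Their summed TPM had the other order, with 9366 in NIH3T3 and 6721 in WT MEFs, and with the GC trend removed 4 were higher in each culture and the median was 0.08. Prrx1, a transcription factor of limb and facial mesenchyme, was higher in NIH3T3 at 290.1 against 70.9 TPM, as was Twist2, a bHLH factor of mesenchyme, at 48.5 against 17.9 TPM. Col3a1, the chain of type III collagen, was at 0.64 TPM in NIH3T3 and 55.8 TPM in WT MEFs. The platelet-derived growth factor receptors went opposite ways. Pdgfrb measured 5.36, 4.35 and 2.27 TPM in untreated NIH3T3 and at 2 and 7 h of Tg, and 59.9, 35.8, 50.8, 52.4 and 54.6 TPM in WT MEFs untreated and at 1, 2, 5 and 8 h, orders that are kept below. Pdgfra measured 13.2, 8.02 and 6.57 TPM in NIH3T3 and 0.27, 2.79, 1.72, 2.53 and 1.32 TPM in WT MEFs. Neither receptor's NIH3T3 and WT MEF values overlapped.

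Markers of other cell types were few. None of the endothelial markers was a member, the epithelial list contributed 3 genes, the cartilage and bone list 3, the neural list 4, and the leukocyte, skeletal muscle and adipocyte lists 1 each. Krt8 and Krt14, keratins of epithelia, were at 15.6 and 15.3 TPM in NIH3T3 and below 1 TPM in all WT MEF libraries, while Krt18, the usual partner of Krt8, was at 13.4 TPM in WT MEFs and listed at 0 in all NIH3T3 libraries. Krt14 shares part of its sequence with Krt16, and Lyz2 (lysozyme), at 46.8 TPM in NIH3T3 and listed at 0 in WT MEFs, with Lyz1, so both values are uncertain. The leukocyte list took at most 0.0028% of the counts of an NIH3T3 library, and the epithelial list at most 0.00615%. Nes (nestin, a filament protein of progenitor cells) was at 26.5 TPM in WT MEFs, from 1890 counts, and listed at 0 in every NIH3T3 library. Ncam1, a neural adhesion molecule, was at 252 TPM in NIH3T3 and 125 TPM in WT MEFs. Spp1 (osteopontin) was at 932 TPM in WT MEFs and 262 TPM in NIH3T3, Sox9, a factor of cartilage, at 24.6 and 66.4 TPM, and Lpl (lipoprotein lipase) at 13.3 and 0.06 TPM. Desmin (Des), of muscle, was at 7.39 TPM in NIH3T3 and listed at 0 in untreated WT MEFs.

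The largest difference between the cultures at a gene with no near-identical copy was at Cdkn2a, which encodes the cell cycle inhibitor p16Ink4a and the p53 activator p19Arf. WT MEFs had 1274, 1350, 1488, 1671 and 1702 TPM, from 6921 counts in the untreated library. All 3 NIH3T3 libraries were at 0 TPM, and the untreated one had 0 counts, so that CPM were at least 2147-fold lower in NIH3T3, with the floor of 3 counts per library. The other bounds below are built in the same way. PERK-null MEFs, the other MEF culture, were at 1709.8 TPM untreated. Its neighbour Cdkn2b, which encodes the related inhibitor p15Ink4b, followed the same pattern with 38.2, 42.6, 66, 64.6 and 56.1 TPM in WT MEFs and 0 in all NIH3T3 libraries, at least 46.5-fold lower in untreated NIH3T3. None of the 25-base windows in either coding sequence was found in another gene of the tables. Cdkn2a lies on chromosome 4 at 89274471 to 89294653 and Cdkn2b at 89306299 to 89311039 (mm10, GENCODE M21), both on the minus strand. The nearest member before them in coordinate order, Mtap, whose enzyme salvages methionine from methylthioadenosine, ends 93.4 kb before Cdkn2a and was translated in both cultures, at 607 TPM in NIH3T3 and 377 TPM in WT MEFs. Farther along, Klhl9, an adaptor of a ubiquitin ligase, was at 101 and 81.3 TPM. Mtap and Klhl9 were picked for their position after the values had been seen.

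Inhibitors of the cell cycle differed by gene. Of 14 members of the list of CDK inhibitors with the p53 and RB families, 3 were higher in WT MEFs (21.4%) and 1 in NIH3T3 (7.14%). The median log2 ratio was 0.05, and the 3 were Cdkn2a, Cdkn2b and Cdkn1c, all at 0 in NIH3T3. Cdkn1c (p57Kip2, an imprinted inhibitor) measured 64.1, 42.4, 93.8, 84.5 and 102 TPM in WT MEFs and was listed at 0 in all NIH3T3 libraries, at least 253-fold lower in the untreated one, while untreated PERK-null MEFs had 15 TPM. Cdkn1a (p21Cip1, the inhibitor that p53 induces) was denser in NIH3T3, with 282, 239.6 and 376 TPM against 50.3, 54.5, 80.3, 86.5 and 91.8 TPM in WT MEFs. The groups did not overlap, and the log2 ratio of counts between the untreated libraries was 2.61 (2.42 to 2.81). Trp53 itself, which encodes p53, was at 247 TPM in NIH3T3 and 250.3 TPM in WT MEFs.

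Targets of p53 were mostly denser in NIH3T3. Of 20 members of this list, 12 were at least 2-fold higher in NIH3T3 (60%, against 15.5% of all members) and 1 in WT MEFs (5%, against 11.4%), with a median log2 ratio of 1.31, where all members had 0.05. For 10 of the 20, all 3 NIH3T3 values lay above all 5 WT MEF values, a pattern found in 19.2% of all members. The list took 0.181% of counts in untreated NIH3T3 (exact binomial interval 0.179 to 0.184%) and 0.0628% in WT MEFs (0.0614 to 0.0642%), with 0.0744% in untreated PERK-null MEFs.

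Ccng1 (cyclin G1, a p53 target that acts with the PP2A phosphatase) differed most, with 470.5, 199 and 208 TPM in NIH3T3 and 36.1, 15.3, 9.22, 8.9 and 7.68 TPM in WT MEFs. All NIH3T3 values were above all WT MEF values, and the untreated log2 ratio of counts was 3.79 (3.63 to 3.95). Eda2r, a member of the TNF receptor family, measured 20.9, 41.5 and 53.8 TPM in NIH3T3 and stayed between 1.54 and 2.46 TPM in WT MEFs. Phlda3, an inhibitor of Akt, measured 116, 169.6 and 216 TPM against 27.1, 37.8, 44.2, 37.2 and 38.4 TPM, again without overlap. Among the effectors of cell death, Fas (the Fas receptor) was at 25 against 5.7 TPM and Bax (which opens the outer membrane of mitochondria) at 329.6 against 98.9 TPM, NIH3T3 against WT MEFs. Mdm2, the ubiquitin ligase of p53 and itself a target, was close to equal at 77 against 70.7 TPM. The exception, Pmaip1 (Noxa, a BH3-only protein), was at 22.2 TPM in WT MEFs and listed at 0 in all NIH3T3 libraries.

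**Figure D2:**
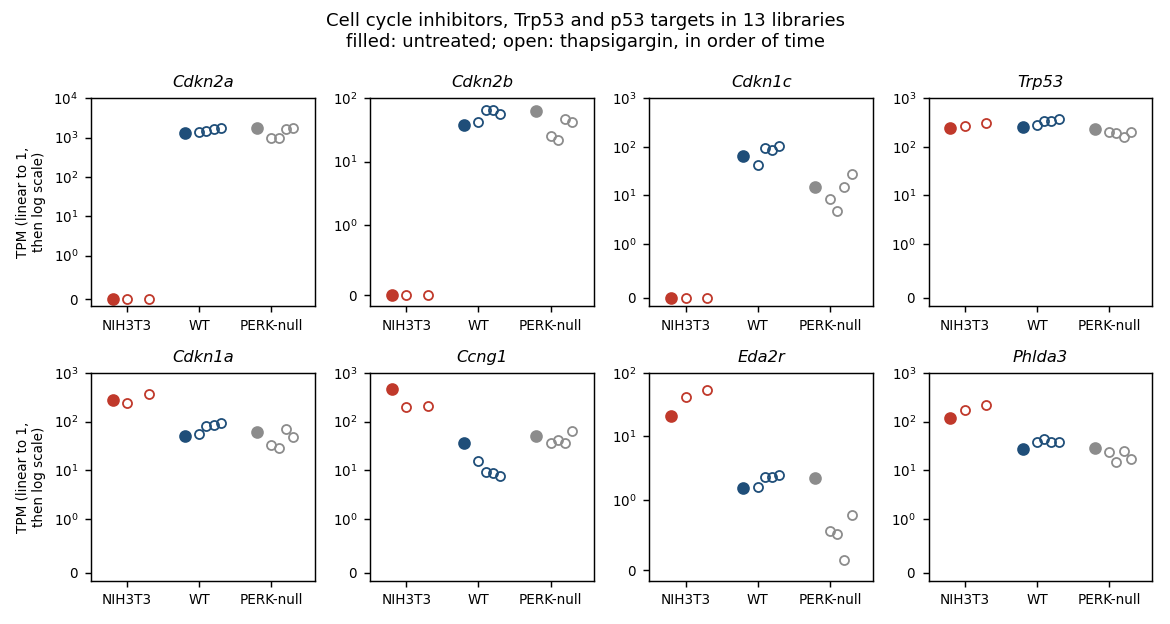
TPM of 8 genes in the 13 libraries, on a scale that is linear to 1 and logarithmic above; filled points are untreated cultures and open points Tg cultures in order of time, in red for NIH3T3, blue for WT MEFs and grey for PERK-null MEFs. Cdkn2a, Cdkn2b and Cdkn1c sit at 0 in all 3 NIH3T3 libraries, Trp53 is level at 247 TPM in NIH3T3 and 250.3 TPM in WT MEFs, and Cdkn1a, Ccng1, Eda2r and Phlda3 are higher in NIH3T3 than in any WT MEF library.

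Genes of the ATF4 pathway were mostly denser in untreated NIH3T3. ATF4 is the transcription factor whose mRNA is translated when eIF2alpha is phosphorylated, and it raises genes of amino acid synthesis, amino acid import and stress signalling. Of 28 members, 17 were at least 2-fold higher in untreated NIH3T3 (60.7%, against 15.5% of all members) and none in WT MEFs (against 11.4%), with a median log2 ratio of 1.49. The list took 0.711% of counts in untreated NIH3T3, 0.334% in WT MEFs and 0.318% in PERK-null MEFs. Since the media differed in amino acids, the part of the medium in these values was not tested.

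Among the factors, Atf4 itself measured 178, 1491 and 527 TPM in NIH3T3 and 34.5, 487, 551, 569 and 576 TPM in WT MEFs. The untreated WT MEF library was the lowest of the 8, and the log2 ratio of counts between the controls was 2.49 (2.34 to 2.64). Ddit3 (CHOP, a factor of the late stress response) measured 47.2, 1086 and 383 TPM against 13.8, 272, 442, 564 and 579.8 TPM. Atf5 was at 36.3 against 2.74 TPM and Cebpb at 182 against 59.4 TPM in the untreated cultures. Atf3 went the other way without reaching a 2-fold difference on the floored scale, at 0.33 TPM in NIH3T3 (2 counts) and 7.62 TPM in WT MEFs (45 counts). The ratio of its counts, log2 -4.39 (-7.48 to -2.45), is far larger than the floored one, and all 3 NIH3T3 values were below all 5 WT MEF values.

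Among effectors, Trib3 (a pseudokinase that restrains ATF4 and Akt) was at 68.5 against 4.12 TPM, the largest ratio of the list (log2 4.06), and Chac1 (which degrades glutathione) at 101 against 10.6 TPM. Ddit4, an inhibitor of mTORC1, measured 309, 381 and 526 TPM in NIH3T3 and 22.8, 37.5, 111, 118 and 124 TPM in WT MEFs, with no overlap. The enzymes of amino acid synthesis were uneven. Pycr1, the last step of proline synthesis, measured 91.4, 73.6 and 80.8 TPM in NIH3T3 and 5.73, 9.36, 18.1, 29.2 and 32.8 TPM in WT MEFs, and Asns, which makes asparagine, 446, 417 and 693 TPM and 67.5, 64.3, 163, 246 and 246 TPM. In both, each NIH3T3 value was above each WT MEF value. In the serine branch, Psph was at 214 against 50.6 TPM and Psat1 at 514 against 308 TPM, but Phgdh, the first enzyme of that branch, was nearly equal at 356 against 379.9 TPM (log2 -0.09). Importers of amino acids were denser in NIH3T3 at Slc7a11 (cystine), 18.3 against 2.51 TPM, Slc7a1 (arginine and lysine), 185 against 59.3 TPM, and Slc7a5 (large neutral amino acids), 362 against 142 TPM, while Slc38a2 (small neutral amino acids) was at 554 against 456 TPM.

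The median difference was near 0 in the Tg cultures. Over the 28 members the median log2 ratio was 1.49 between the controls, -0.05 at 2 h and 0.01 late, and 4 of the 28 members had NIH3T3 values above all WT MEF values, against 19.2% of all members. The share of counts on the list lay between 0.711% and 1.18% over the NIH3T3 libraries and between 0.334% and 1.15% over the WT MEF libraries. The 4 genes were Pycr1, Ddit4, Asns and Slc1a5 (a glutamine importer).

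**Figure D3:**
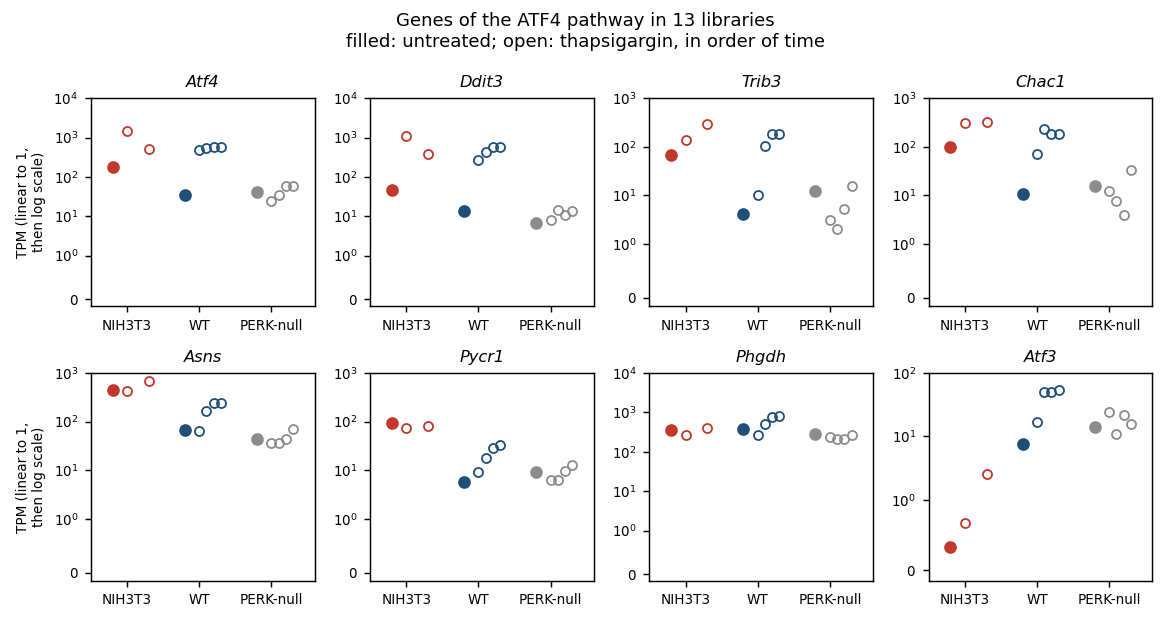
TPM of 8 genes of the ATF4 pathway in the 13 libraries, on a scale that is linear to 1 and logarithmic above; filled points are untreated cultures and open points Tg cultures in order of time, in red for NIH3T3, blue for WT MEFs and grey for PERK-null MEFs. Untreated NIH3T3 lies above untreated WT MEFs at Atf4, Ddit3, Trib3, Chac1, Asns and Pycr1, level with it at Phgdh (356 against 379.9 TPM) and below it at Atf3 (0.33 against 7.62 TPM).

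The promoters of these genes were searched for the letters TGATGNAA, a form of the element that ATF4 binds with C/EBP factors, on both strands from 250 bases before to 50 bases after the annotated start (RefSeq, GRCm38.p6, the same assembly as mm10). The motif was chosen after the values had been seen. Of the 28 members, 24 had a promoter in the table, and 8 of these (33.3%) held it. The motif was found in 2.47% of 7604 members of any kind, 3.65% of 1177 members higher in NIH3T3 and 4.51% of all 27025 genes. The list was made of ATF4 pathway genes, so its share describes the list and not a difference between the cultures. The 8 were Trib3, Chac1, Asns, Pycr1, Slc7a11, Slc1a4, Nupr1 and Atf3, of which the first 7 were among the genes at least 2-fold higher in NIH3T3. Of 14 p53 targets with a promoter, 1 held the motif. Stretches of 100 bases upstream of the start are given here for 4 genes that were higher in NIH3T3 and for Atf3, which was not, read 5′ to 3′ on the strand of the gene with the match in capitals. They are chr2:119351003-119351102 (Chac1, plus strand), chr6:7693210-7693309 (Asns, minus), chr11:120643798-120643897 (Pycr1, minus), chr7:126625527-126625626 (Nupr1, minus) and chr1:191183390-191183489 (Atf3, minus).
Chac1: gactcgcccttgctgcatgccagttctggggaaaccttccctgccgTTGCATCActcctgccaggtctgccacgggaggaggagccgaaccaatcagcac
Asns: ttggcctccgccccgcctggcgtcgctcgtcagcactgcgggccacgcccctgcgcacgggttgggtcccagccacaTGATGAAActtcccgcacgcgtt
Pycr1: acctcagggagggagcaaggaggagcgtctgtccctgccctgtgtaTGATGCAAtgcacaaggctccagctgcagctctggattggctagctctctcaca
Nupr1: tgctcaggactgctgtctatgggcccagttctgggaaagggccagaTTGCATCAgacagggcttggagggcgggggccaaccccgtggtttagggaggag
Atf3: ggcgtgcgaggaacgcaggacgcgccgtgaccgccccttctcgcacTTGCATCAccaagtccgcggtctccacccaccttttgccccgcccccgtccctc
The match lay on the strand of the gene in Asns and Pycr1 and on the opposite strand in Chac1, Nupr1 and Atf3. Its first base was 193 bases before the start in Chac1, 23 in Asns, 103 in Pycr1 and 110 in both Nupr1 and Atf3.

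The other arms of the unfolded protein response, in which the ER sensors IRE1 and ATF6 raise chaperones and degradation factors, differed less. Of 26 members of the ER list, 7 were at least 2-fold higher in NIH3T3 (26.9%, against 15.5% of all members) and none in WT MEFs (against 11.4%), with a median log2 ratio of 0.40. The median was 0.11 at 2 h and 0.54 late. For 1 of the 26 all NIH3T3 values lay above all WT MEF values, against 19.2% of all members. In the untreated cultures the genes higher in NIH3T3 included factors of ER-associated degradation. Herpud1 was at 228 against 25.6 TPM and Syvn1 (the ubiquitin ligase Hrd1) at 62.5 against 26.6 TPM. Sdf2l1, a partner of the chaperone BiP, was at 156 against 23.9 TPM, and Xbp1, the target of IRE1 splicing, at 104 against 29.2 TPM. The major chaperone BiP (Hspa5) was at 1985 TPM in NIH3T3 and 1357 TPM in WT MEFs, a log2 ratio of counts of 0.67 (0.65 to 0.69). None of 7 eIF2alpha kinases and phosphatase subunits differed 2-fold. Eif2ak3, which encodes PERK, was at 10.8 TPM in NIH3T3 and 6.03 TPM in WT MEFs. Of 20 cytosolic aminoacyl-tRNA synthetases, which load tRNAs and include ATF4 targets, 1 was higher in NIH3T3 (Yars, 195 against 94.4 TPM) and none in WT MEFs.

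**Figure D4:**
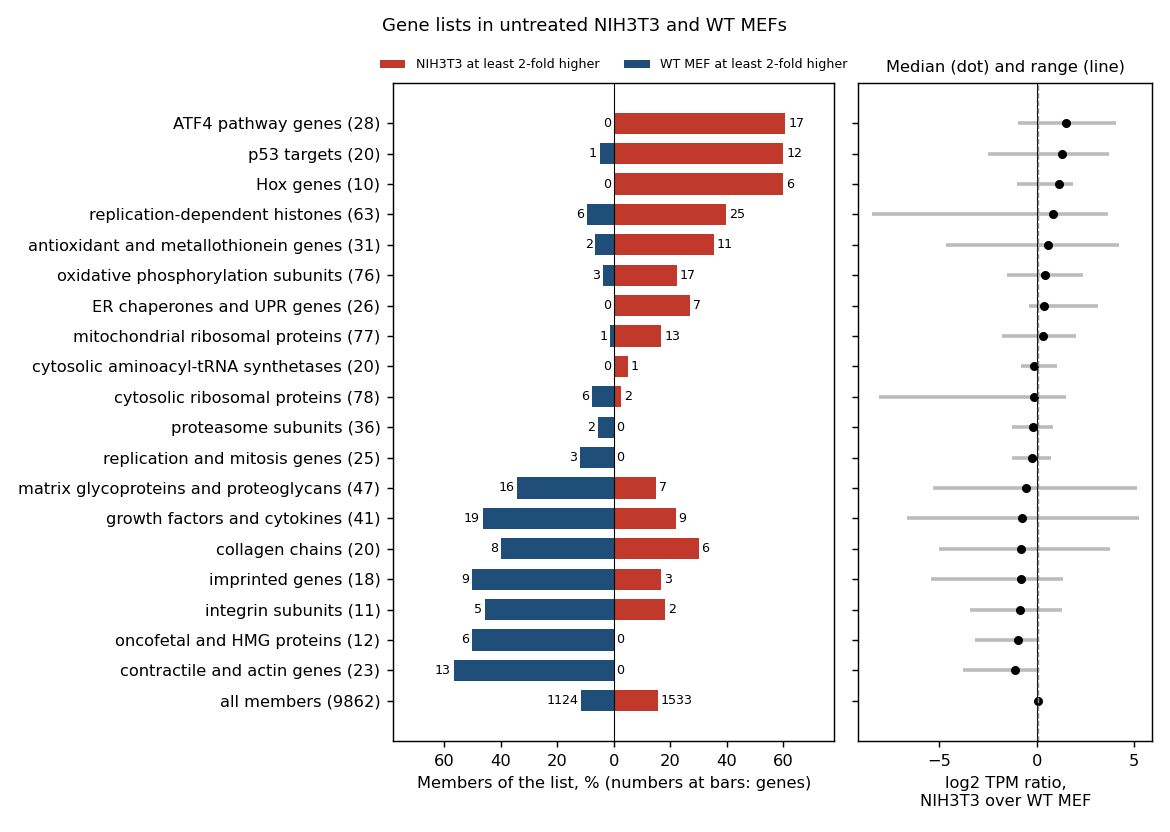
Share of the members of 19 gene lists, and of all members (bottom), that were at least 2-fold higher in untreated NIH3T3 (red, to the right) or untreated WT MEFs (blue, to the left), with the number of genes at each bar and of members in brackets; the right panel gives the median log2 TPM ratio (dot) and the lowest and highest ratio (line). The ATF4 list stands at 17 to 0, and the contractile list at 0 to 13, while all members stand at 1533 to 1124.

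Contractile and actin genes were denser in WT MEFs. These encode the actin isoforms, tropomyosins, myosins and crosslinkers of stress fibres. Of 23 members, 13 were at least 2-fold higher in WT MEFs (56.5%, against 11.4% of all members) and none in NIH3T3, with a median log2 ratio of -1.10, and for 21 all NIH3T3 values lay below all WT MEF values, against 22.4% of all members. The list took 4.45% of counts in untreated WT MEFs and 2.83% in NIH3T3, with 3.61% in PERK-null MEFs. Tagln (transgelin, an actin-binding protein of smooth muscle and myofibroblasts) measured 184, 156 and 99.5 TPM in NIH3T3 and 2533, 2574, 2147, 1679.9 and 1500.2 TPM in WT MEFs. Tpm2 (beta-tropomyosin) measured 108, 67.4 and 53.5 TPM against 638, 478, 486, 515 and 489 TPM, and Cnn1 (calponin) was at 1.56 against 20.8 TPM. The highest log2 ratio on the list was 0.10.

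Matrix genes differed by component. Collagen chains took 1.79% of counts in untreated NIH3T3 and 1.62% in WT MEFs. Of 20 members, 6 were higher in NIH3T3 (30%, against 15.5% of all members) and 8 in WT MEFs (40%, against 11.4%). The median log2 ratio was -0.78, opposite in sign to the difference in the summed share. Type VI collagen, which forms beaded filaments around cells, was denser in NIH3T3 in its 3 main chains, with Col6a1 at 119 against 37.1 TPM, Col6a2 at 127 against 13.4 TPM and Col6a3 at 93.9 against 6.86 TPM. Col6a3 measured 6.86, 8.29, 5.24, 3.82 and 3.21 TPM over the WT MEF libraries and 93.9, 59.8 and 37.3 TPM in NIH3T3. In the basement membrane collagen, type IV, the chains split by gene pair. Col4a1 and Col4a2, which are transcribed from a shared promoter region and assemble together, were higher in WT MEFs at 217 and 100.4 TPM against 86.3 and 37.5 TPM. Col4a5 and Col4a6, the pair on the X chromosome, were higher in NIH3T3 at 63.6 and 42.8 TPM against 5.63 and 0.4 TPM.

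Fibril-associated and fibrillar chains completed the list. Col12a1, a fibril-associated chain, measured 127, 95.1, 102, 94 and 88.7 TPM in WT MEFs and 0.15, 0.47 and 0.74 TPM in NIH3T3, and its 11 against 15066 counts gave a log2 ratio of -10.32 (-11.32 to -9.48). Col11a1 was at 19.1 TPM in WT MEFs, with 1 count in NIH3T3 against 1317. The abundant chains of type I collagen were closer and went opposite ways, with Col1a1 at 743 TPM in NIH3T3 and 1400.4 TPM in WT MEFs, and Col1a2 at 1939 and 899.7 TPM.

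Of 47 matrix glycoproteins and proteoglycans, 16 were higher in WT MEFs (34.0%) and 7 in NIH3T3 (14.9%), with a median log2 ratio of -0.54. They took 2.67% of counts in NIH3T3 and 2.87% in WT MEFs, an order that turned when TPM were summed in place of counts. Postn (periostin, which links collagen to other matrix proteins) measured 186, 116, 117, 132 and 122 TPM in WT MEFs and 4.92, 3.76 and 3.28 TPM in NIH3T3. Fibulin-1 (Fbln1) and the microfibril protein Mfap2 were at 68.2 and 80.4 TPM in WT MEFs and had 0 counts in untreated NIH3T3, at least 548-fold and 165-fold lower. The related microfibril protein Mfap5 was the reverse, with 141, 148 and 102 TPM in NIH3T3 and 0 in all 5 WT MEF libraries, at least 268-fold higher in untreated NIH3T3, and 3.73 TPM in PERK-null MEFs. Enzymes that crosslink collagen also parted. Lox (lysyl oxidase) measured 3262, 1852 and 1750.2 TPM in NIH3T3 and 340.2, 397, 375, 499 and 535 TPM in WT MEFs, while its relative Loxl2 was at 159.7 TPM in WT MEFs, with 2 counts in NIH3T3 against 4641. Loxl2 has a near-identical entry in the tables, Gm21451, but the 2 entries summed also had 2 counts in untreated NIH3T3.

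Integrins are receptors for the matrix. Of 11 integrin subunits, 5 were higher in WT MEFs (45.5%, against 11.4% of all members) and 2 in NIH3T3 (18.2%, against 15.5%). Those higher in WT MEFs include the laminin-binding chains Itga3 (44.4 TPM in WT MEFs, 4.19 in NIH3T3) and Itga6 (41.4 and 7.36 TPM). Itgb4, which pairs with Itga6, was at 8.54 TPM in NIH3T3 and 0.16 TPM in WT MEFs. Matrix proteases and inhibitors divided evenly, with 7 of 27 higher in each culture (25.9%, against 15.5% of all members in NIH3T3 and 11.4% in WT MEFs). Timp3, an inhibitor of metalloproteases, was at 136 TPM in WT MEFs and 0.56 TPM in NIH3T3. In the plasminogen system, the activators Plau and Plat were higher in WT MEFs (121 and 89.9 TPM against 20.7 and 25.9 TPM), and the receptor Plaur was higher in NIH3T3 (409 TPM against 116 TPM).

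Of 41 growth factors and cytokines, 19 were at least 2-fold higher in WT MEFs (46.3%, against 11.4% of all members) and 9 in NIH3T3 (22%, against 15.5%). Without genes at 0 in a control, 11 of 31 were higher in WT MEFs and 7 in NIH3T3. Cxcl12, the chemokine that binds CXCR4, measured 391, 271, 225, 242 and 219 TPM in WT MEFs and 0 in all 3 NIH3T3 libraries, at least 353-fold lower in the untreated one. Grem1 (gremlin, a BMP antagonist) measured 362, 286, 480.5, 563 and 579.6 TPM in WT MEFs and 0 in NIH3T3, at least 762-fold lower, and 31.5 TPM in untreated PERK-null MEFs. Ptn (pleiotrophin, a heparin-binding growth factor) was at 67.2 TPM in WT MEFs and 0.73 TPM in NIH3T3. In the other direction, Fgf7 (keratinocyte growth factor) measured 152, 175 and 108 TPM in NIH3T3 and 2.18, 13.8, 2.94, 0 and 1.5 TPM in WT MEFs. The neutrophil chemokines Cxcl5 and Cxcl1 were at 113 and 42.5 TPM in untreated NIH3T3 and had 0 counts in untreated WT MEFs, at least 164-fold and 40.1-fold higher, although Cxcl1 reached 28.9 TPM at 1 h of Tg in WT MEFs. Vegfd, a growth factor of lymphatic vessels, was at 36.5 against 4.42 TPM.

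Receptors of growth factors were split, with 6 of 29 higher in NIH3T3 (20.7%, against 15.5% of all members) and 8 in WT MEFs (27.6%, against 11.4%). As with the PDGF receptors, the FGF receptors went opposite ways, Fgfr1 at 8.89 TPM in NIH3T3 and 57.2 TPM in WT MEFs, and Fgfr2 at 18.1 and 2.82 TPM. Egfr, the receptor of EGF, was at 16 TPM in WT MEFs, with 3 counts in untreated NIH3T3 against 631, a log2 ratio of counts of -7.61 (-9.89 to -6.06). Receptors of the IL-6 family of cytokines were denser in NIH3T3, Osmr (oncostatin M) at 35.1 against 7.35 TPM and Lifr (LIF) at 15.9 against 3.64 TPM. Il1rl1, the receptor of IL-33, was at 589 TPM in WT MEFs and 144 TPM in NIH3T3.

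Imprinted genes, which are read from only the maternal or the paternal copy and many of which act in embryonic growth, differed by gene. Of 18 members, 9 were higher in WT MEFs (50%, against 11.4% of all members) and 3 in NIH3T3 (16.7%, against 15.5%), with a median log2 ratio of -0.81. This direction rests on entries of 0, since without genes at 0 in a control 1 of 10 was higher in WT MEFs and 3 in NIH3T3, with a median of 0.21. The list took 0.321% of counts in NIH3T3 and 0.266% in WT MEFs. Igf2, a growth factor of the embryo, measured 28.3, 50, 58.8, 56.8 and 61.8 TPM in WT MEFs, and Peg10 81, 54.1, 53.2, 55.6 and 53.8 TPM, with 0 in all NIH3T3 libraries at both. Nnat (neuronatin) was at 168 TPM in WT MEFs and 0 in NIH3T3. Peg3 and Grb10 (an adaptor that restrains insulin and IGF receptors) were denser in NIH3T3, at 10.2 against 1.79 and 281 against 133 TPM. Binding proteins of IGFs hold these factors outside the cell. On a list of these and of proteins that bind IGF2 mRNA, 3 of 9 members were higher in WT MEFs (33.3%, against 11.4%). In NIH3T3 1 was higher (11.1%, against 15.5%). The log2 ratio was below 0 for 8 of the 9, with a median of -0.64. Igfbp2 and Igfbp7 were at 109 and 756 TPM in WT MEFs against 0 and 38.3 TPM in NIH3T3, and Igfbp6 was at 237 TPM in NIH3T3 against 21.8 TPM. Of 12 oncofetal and HMG genes, 6 were higher in WT MEFs (50%, against 11.4% of all members) and none in NIH3T3 (against 15.5%). Hmga2, a chromatin protein of embryonic and tumour cells, measured 712, 232, 209, 96.6 and 131 TPM in WT MEFs and 80.1, 64 and 74.6 TPM in NIH3T3. The WT MEF values were lower in every Tg library than in the untreated one, and the lowest of them was close to the highest NIH3T3 value.

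Factors that record position in the embryo were not the same in both cultures. Of 36 patterning transcription factors, 10 were higher in NIH3T3 (27.8%) and 9 in WT MEFs (25%), with a median log2 ratio of 0.46 that turned to -0.08 with the GC trend removed. Pax3, Alx1 and Alx4, homeobox factors of neural crest and facial mesenchyme, measured 31.8, 48.5 and 9.74 TPM in untreated WT MEFs and 0 in every NIH3T3 library. They were also low in untreated PERK-null MEFs, at 1.63, 2.62 and 0.99 TPM. Osr1, a factor of intermediate and lateral mesoderm, was at 209 TPM in NIH3T3 and 64.6 TPM in WT MEFs. Of 39 Hox genes in the tables, 10 were members. Of these, 6 were higher in NIH3T3 (60%, against 15.5% of all members) and none in WT MEFs (against 11.4%). Hoxa7 was at 35.4 against 9.67 TPM and Hoxa5 at 12.3 against 1.39 TPM. Hoxa2 and Hoxa3 were at 8.82 and 11.4 TPM in NIH3T3, with 0 counts in untreated WT MEFs, at least 42.6-fold and 66.6-fold higher. These levels are close to the floor of 4 TPM, and the median log2 ratio of the 10 genes moved from 1.13 to 2.81 with a floor of 1 TPM. With that lower floor 8 were higher in NIH3T3 and 2 in WT MEFs, and with the GC trend removed 4 and 1 were.

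Surface antigens that are used to sort mesenchymal cells differed strongly, with 9 of 29 higher in NIH3T3 (31.0%) and 12 in WT MEFs (41.4%). Mcam (CD146) measured 181, 119, 119.8, 100.4 and 92.3 TPM in WT MEFs, and untreated NIH3T3 had 2 counts against 4176, a log2 ratio of -10.92 (-13.97 to -9.07). Cd44, the receptor of hyaluronan, was at 1259 TPM in WT MEFs and 233 TPM in NIH3T3, and Cdh11, the cadherin of mesenchyme, at 159.8 and 0.54 TPM (Cdh11 shares some windows with Gm21811). Cspg4 (NG2) and Cd24a were higher in NIH3T3, at 95.6 against 16.5 and 394 against 56.8 TPM. Ly6a (Sca-1) and Ly6c1 were at 121 against 8.7 and 136 against 1.74 TPM, but both share sequence with other Ly6 genes, and their values are uncertain.

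A pair of small heat shock proteins was among the largest ratios. Cryab (alphaB-crystallin) and Hspb7 measured 735, 531 and 485 TPM and 412, 333 and 311 TPM in NIH3T3. Cryab stayed between 4.76 and 21.4 TPM in WT MEFs, and Hspb7 had 0 counts in the untreated WT MEF library, at least 812-fold higher in NIH3T3. Of 31 antioxidant genes, 11 were higher in NIH3T3 (35.5%) and 2 in WT MEFs (6.45%). Gstm2, a glutathione transferase that shares part of its sequence with Gstm1, was at 74.2 against 1.27 TPM, Blvrb (biliverdin reductase B) at 111 against 11.8 TPM and Cbr2 (carbonyl reductase 2), which is not on the list, at 323 against 5.03 TPM. The superoxide dismutases parted, the cytosolic Sod1 at 158 TPM in NIH3T3 and 948 TPM in WT MEFs, and the secreted Sod3 at 54.4 TPM in NIH3T3 with 0 counts in WT MEFs (at least 170.1-fold higher). Mt2, a metallothionein, was at 160.3 TPM in WT MEFs and 6.36 TPM in NIH3T3. Since beta-mercaptoethanol was in the MEF medium only, its part in these values was not tested.

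Genes of innate immunity and antigen presentation were also compared. Of 15 interferon-stimulated members, 6 were higher in NIH3T3 (40%, against 15.5% of all members) and 2 in WT MEFs (13.3%, against 11.4%), with a median log2 ratio of 0.86. Without genes that share sequence 4 and 2 of 12 were, with a median of 0.38. The 6 include Ifitm3 at 699.9 against 209.7 TPM, NIH3T3 first. Untreated PERK-null MEFs were closer to NIH3T3 than to WT MEFs at this gene, with 842 TPM. Ifitm3 shares part of its sequence with Ifitm2. Of 14 genes of MHC class I presentation, 5 were higher in NIH3T3 (35.7%) and 2 in WT MEFs (14.3%), and Tap1 and Tap2, which carry peptides to MHC class I, were at 11 against 2.45 and 15.6 against 2.72 TPM. The MHC class I heavy chains H2-K1 and H2-D1 went opposite ways, at 6.9 against 68.5 and 522 against 86 TPM, but share part of their sequence, and their values are uncertain.

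Of the Y-linked genes, Ddx3y (an RNA helicase) measured 40.5, 33.8, 45.2, 39.6 and 36.4 TPM and Eif2s3y (a subunit of eIF2) 50.6, 54.5, 47.6, 37.2 and 38 TPM in WT MEFs. All NIH3T3 libraries were below 1 TPM at both, with 1 and 4 counts in the untreated one, and so was the untreated PERK-null library, at 0.07 and 0 TPM. These genes set the WT MEF culture apart from both other cultures.

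Genes that respond to signals, among them transcription factors, were also compared. Of 18 genes that respond to YAP or TGF-beta, 6 were higher in NIH3T3 (33.3%) and 2 in WT MEFs (11.1%, near the 11.4% of all members). The median log2 ratio was 0.04, with 9 genes above 0 and 9 below, and the lowest ratio was that of Tagln (-3.78). The inhibitors of bHLH factors, Id1, Id2 and Id3, targets of BMP signals, were at 136, 401 and 505 TPM in NIH3T3 and 38.7, 41.9 and 171 TPM in WT MEFs. Of 14 immediate-early factors, which growth factors induce within minutes, 3 were higher in each culture (21.4%). Among them were Klf4 and Jund in NIH3T3, at 47.9 against 3.12 and 83.4 against 18.8 TPM. Egr1 was higher in WT MEFs, at 29.9 TPM against 5.39 TPM. Of 184 zinc finger genes named Zfp, 19 were higher in NIH3T3 (10.3%) and 11 in WT MEFs (5.98%), with a median log2 ratio of 0.14, and with counts per library total 40 and 16.

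Replication and mitosis genes differed by less than 2-fold for the most part between the untreated cultures. Of 25 members, 3 were higher in WT MEFs (12%, near the 11.4% of all members) and none in NIH3T3, with a median log2 ratio of -0.25. The list took 0.6% of counts in NIH3T3 and 0.717% in WT MEFs. For 14 of the 25 all NIH3T3 values lay below all WT MEF values, against 22.4% of all members, and the median was -0.71 at 2 h and -0.91 late. With the GC trend removed none was 2-fold apart. Of 15 cyclins, CDKs and CDC25 phosphatases, 3 were higher in each culture (20%). Ccnd2 (cyclin D2) and Ccne1 (cyclin E1) were higher in NIH3T3, at 272 against 110.4 and 49.9 against 24 TPM. Ccnb2 (cyclin B2) and Ccne2 (cyclin E2) were higher in WT MEFs, at 52.3 and 55.5 TPM against 18.7 and 20.8 TPM.

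Mitochondrial genes were seldom higher in WT MEFs. Of 76 subunits of oxidative phosphorylation, 17 were higher in NIH3T3 (22.4%, against 15.5% of all members) and 3 in WT MEFs (3.95%, against 11.4%), with a median log2 ratio of 0.42 between the controls, 0.02 at 2 h and 0.15 late. With the GC trend removed 10 of 75 were higher in NIH3T3, where 1375 of all 9523 members were. Of 77 mitochondrial ribosomal proteins, 13 were higher in NIH3T3 (16.9%, near the share of all members) and 1 in WT MEFs (1.3%), with a median of 0.34, and with counts per library total 20 were higher in NIH3T3. Uqcr10 of complex III was at 736 against 264 TPM and Ndufb2 of complex I at 364 against 138 TPM, while Sdha of complex II was higher in WT MEFs, at 158 TPM against 65.7 TPM. In other metabolism the counts were small. Of 21 glycolysis and lactate genes, 3 were higher in each culture (14.3%, against 15.5% of all members in NIH3T3 and 11.4% in WT MEFs). Pdk1, which holds pyruvate out of mitochondria, was at 15.1 against 4.12 TPM, and Slc16a3, a lactate exporter, was at 15.1 TPM in WT MEFs and 0 in all NIH3T3 libraries. Of 24 sterol synthesis genes, 3 were higher in WT MEFs (12.5%) and 1 in NIH3T3 (4.17%). Fatty acid synthesis stood at 2 higher in WT MEFs (12.5%) and 1 in NIH3T3 (6.25%) of 16. Most of its differences were under 2-fold but lay on 1 side, with a log2 ratio below 0 for 13 of the 16. The median was -0.53, with -0.61 at 2 h and -0.60 late. For 9 of the 16 all NIH3T3 values lay below all WT MEF values, against 22.4% of all members.

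Ribosomal proteins were close to equal, and translation factors leaned to WT MEFs by their summed share in the untreated cultures. Of 78 cytosolic ribosomal proteins, 6 were higher in WT MEFs (7.69%) and 2 in NIH3T3 (2.56%), with a median log2 ratio of -0.14, and they took 6.82% of counts in NIH3T3 and 6.96% in WT MEFs. Without genes that share sequence, 2 of 65 were higher in each culture. The median of the 78 was -0.12 at 2 h and 0.32 late. Proteasome subunits stood at 2 higher in WT MEFs of 36 (5.56%), with none higher in NIH3T3 and a median log2 ratio of -0.20. For 15 of the 36 all NIH3T3 values lay below all WT MEF values, against 22.4% of all members. Among 62 initiation and elongation factors, 11 were higher in WT MEFs (17.7%, against 11.4% of all members) and 2 in NIH3T3 (3.23%, against 15.5%), with 4.05% of counts in WT MEFs and 3.21% in NIH3T3. The shares were 3.86% and 3.22% at 2 h and 3.74% and 3.85% late, WT MEFs first, so that their order turned late. The median log2 ratio of these factors was -0.08 and turned to 0.03 with counts per library total. The median was -0.14 at 2 h and 0.11 late. For 15 of the 62 all NIH3T3 values lay below all WT MEF values, a pattern found in 22.4% of all members. Eif5, which promotes start codon selection, was at 229 TPM in WT MEFs and 38.2 TPM in NIH3T3, and Eif4ebp1, the repressor of cap-dependent initiation and an ATF4 target, at 122 and 658 TPM.

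Replication-dependent histones took 3.15% of counts in untreated NIH3T3 and 1.76% in WT MEFs, and of 63 members 25 were higher in NIH3T3 (39.7%, against 15.5% of all members) and 6 in WT MEFs (9.52%, against 11.4%), with a median log2 ratio of 0.85. With the GC trend removed 15 and 7 were, with a median of 0.34. Of the 63, 60 share at least 10% of their 25-base windows with another gene, so which histone gene received a footprint is uncertain. The shares of the list ranged from 3.15 to 7.35% over the NIH3T3 libraries and from 1.76 to 4.24% over WT MEFs, and overlapped.

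Some of the largest ratios were at genes with a near-identical copy. Rpl34, a ribosomal protein of the large subunit, was at 1063 TPM in WT MEFs and 0 in untreated NIH3T3, while its processed pseudogene Rpl34-ps1 was at 1972 TPM in NIH3T3 and 9.91 TPM in WT MEFs. The same held for Ahcy, which hydrolyses S-adenosylhomocysteine, and Gm4737. The coding stretch of Rpl34-ps1 differs from that of Rpl34 at 2 of 354 bases (99.4% identity), and that of Gm4737 from Ahcy at 4 of 1299 (99.7%). The 90 coding bases with the most differences are shown, with the differing bases in capitals, to let the reader see how little a footprint can hold to tell them apart (GENCODE M21, mm10). They are bases 43 to 132 of the coding sequences of Rpl34 (gene at chr3:130726831-130730398, minus strand) and Rpl34-ps1 (chr6:71124610-71124963, plus), and 385 to 474 of Ahcy (chr2:155059310-155074497, minus) and Gm4737 (chr16:46152985-46155077, minus).
Rpl34: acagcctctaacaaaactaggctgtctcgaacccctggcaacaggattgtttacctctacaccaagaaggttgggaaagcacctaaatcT
Rpl34-ps1: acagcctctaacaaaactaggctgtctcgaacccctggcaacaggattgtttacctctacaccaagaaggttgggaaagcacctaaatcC
Ahcy: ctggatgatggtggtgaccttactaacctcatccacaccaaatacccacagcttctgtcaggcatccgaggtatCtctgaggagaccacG
Gm4737: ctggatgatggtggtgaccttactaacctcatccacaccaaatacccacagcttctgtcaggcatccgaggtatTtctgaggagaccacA

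Summing each gene with its copy gave smaller differences. Rpl34 and Rpl34-ps1 together gave a log2 ratio of TPM of 0.88 in place of -8.05 and 7.64, and Ahcy with Gm4737 gave -0.86 in place of -6.17 and 5.29. Eno1 (enolase) and Eno1b gave 0.05 in place of -1.81 for Eno1. Rpl29 with Gm8210 kept a difference of 1.54, opposite in sign to that of Rpl29 alone (-5.55). The assignment also changed between MEF cultures, where Rpl34-ps1 received 0.927% of the pair's counts in untreated WT MEFs, 35.1% in WT MEFs at 1 h and 99.6% in untreated PERK-null MEFs. Genes that share at least 10% of their 25-base windows with another gene were 4.53% of the members with a coding sequence, 9.02% of those higher in NIH3T3 and 3.50% of those higher in WT MEFs.

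**Figure D5:**
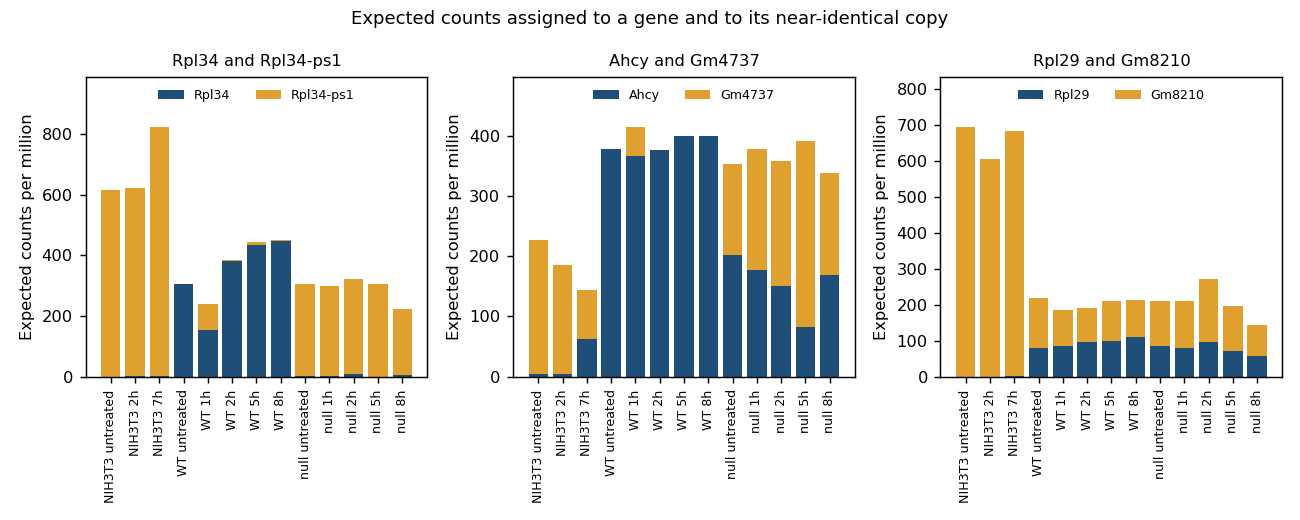
Expected counts on a gene, scaled to the library total (CPM), (blue) and its near-identical copy (orange) in the 13 libraries, 1 stacked bar per library, for Rpl34 with Rpl34-ps1, Ahcy with Gm4737 and Rpl29 with Gm8210. Nearly all counts of the Rpl34 pair lie on the pseudogene in NIH3T3 and PERK-null MEFs and on Rpl34 in untreated WT MEFs.

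Sequence properties differed between the genes higher in each culture. The median GC content of the coding sequence was 54.9% for genes higher in NIH3T3, 51.2% for genes higher in WT MEFs and 52.6% for all members, and the median coding length 1020, 1392 and 1338 bases. Over members, Spearman's rho of the log2 ratio on GC content was 0.215, a description across genes of 2 libraries that were made separately. The part of library preparation in this trend was not tested.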

How the data were processed

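Footprints of untreated and Tg-treated NIH3T3, WT MEFs and PERK-null MEFs were collected without cycloheximide from cells that had been trypsinized, pelleted and flash frozen. The authors used STAR to remove rRNA and tRNA reads and Bowtie2 to align what was left to mm10 coding sequences (RefSeq) with both ends clipped, and RSEM to quantify genes. Versions are not given in the sources used here. The authors deposited RSEM expected counts, as whole numbers, and TPM per gene, in separate tables for MEFs and for NIH3T3.

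Tables were joined by symbol, and 25 symbols that had been turned into dates stayed in the joined tables. TPM values under 4 were raised to 4 before ratios were taken, and genes at least 2-fold apart were counted. With 1 library per condition no test was run. Exact 95% intervals (Clopper-Pearson) cover counting error only, and a gene at 0 counts was set to a floor of 3 counts for bounds. The 95% interval of a share of counts is the exact binomial one. Named genes were the 12 with the largest ratio in each direction among those with at least 100 counts, up to 4 per direction for each list together with further list members that complete a family, the 10 with the highest TPM in each culture, pairs of related genes in opposite directions, and 8 genes of the stress and cell cycle routes. Some genes that this rule names are not reported here. The members and lists were chosen with earlier results of these data known. Coding sequences for GC content and for windows of 25 bases shared between genes came from GENCODE M21 and promoters from RefSeq (GRCm38.p6). Ratios were also recomputed with values raised to 1 TPM only, with 1 added to TPM, with a minimum of 10 TPM, without a filter, and with counts per library total, TMM and DESeq2 size factors, removal of a GC trend, a 3-fold threshold, a requirement on the counting interval and, chosen after seeing the data, leaving out genes that share sequence or have 0 counts. The counting steps were tested on simulated data. Ratios and intervals were computed in Python 3.11.15 (pandas 2.3.3, numpy 2.4.6; intervals with scipy 1.17.1, the GC trend with statsmodels 0.14.6, plots with matplotlib 3.10.9). TMM factors came from edgeR 4.0.16 and size factors from DESeq2 1.42.0, in R 4.3.3.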

Additional observations from a re-analysis of the deposited data

How the results depend on the processing

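No paired analysis was possible because the labels carry no replicate numbers and each condition has 1 library. With a 3-fold threshold, 629 genes were higher in NIH3T3 and 493 in WT MEFs. Counts per library total moved the median log2 ratio of all genes from 0.05 to 0.16, and changes on that scale are relative to this shift. Of 348 recomputed list medians 344 stayed within the interval of the median over the list and 4 did not. The 4 were Hox genes (2.81 with a floor of 1 TPM, 2.5 with a pseudocount of 1), histones (0.34 with the GC trend removed) and Zfp genes (0.27 with counts per library total). That interval runs over the genes of a list, which are not replicates, and can hold a change of sign. Imprinted genes moved from -0.81 to 0.21 without genes at 0 in a control (interval -2.53 to 0.25). Patterning factors moved from 0.46 to -0.08 with the GC trend removed (-0.33 to 0.83). The 344 therefore does not show that directions held, and the 35 medians without a filter could not change. None of 2294 recomputed ratios of named genes took the opposite sign, which was counted only for genes reported as at least 2-fold apart. Of the 2294, 438 moved by more than the counting error of the gene. The ratio of a gene could not change without a filter (237 ratios) or with a minimum of 10 TPM (233). Nor could it on leaving out genes that share sequence (201) or have 0 counts (203). With counts per library total, 59.1% of the genes higher in NIH3T3 were still 2-fold apart at 2 h and 68.0% of those higher in WT MEFs late. The log2 ratio of summed TPM was 1.67 for p53 targets, -0.78 for contractile genes, 0.10 for collagens, 0.75 for histones, -0.11 for ribosomal proteins, 0.34 for oxidative phosphorylation and 0.41 for mitochondrial ribosomal proteins, all in the direction of the count shares, and 0.20 for matrix glycoproteins, where the count shares gave -0.10. The cause was not tested. With a floor of 1 TPM, 1261 genes differed between PERK-null and WT MEFs and 58 between WT MEFs at 8 and 5 h. Over the other settings the genes higher in NIH3T3 numbered 1375 to 1908 and those higher in WT MEFs 978 to 1480. The depth of the untreated libraries limits ratios at genes with few counts, and the absence of a second library leaves the spread between cultures unknown.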

Other observations

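Ratios varied by chromosome. Over 9523 members with a position, the median log2 TPM ratio of NIH3T3 over WT MEFs was 0.05, and it was 0.39 on chromosome 7, where 148 of 658 members were at least 2-fold higher in NIH3T3 (22.5%) and 28 in WT MEFs (4.26%), and 0.38 on chromosome 8, with 117 and 41 of 542. The lowest median of an autosome was -0.41, on chromosome 18, with 22 of 252 members higher in NIH3T3 and 50 in WT MEFs, and with medians of -0.38 at 2 h and -0.32 late. On chromosome 14 it was -0.28, with 31 of 338 higher in NIH3T3 and 58 in WT MEFs, and on chromosome 13 -0.27. The chromosome 14 median stayed close at 2 h (-0.30) and late (-0.26), while that of chromosome 7 was 0 and 0.01. The median GC content of the coding sequences was 55.8% on chromosome 7, 50.6% on chromosome 14 and 50.4% on chromosome 18. It was lowest among the autosomes on chromosome 12 (50.2%), where the median log2 ratio was 0.22. There 79 of 340 members were higher in NIH3T3 (23.2%) and 38 in WT MEFs (11.2%). The median log2 ratio of PERK-null over WT MEFs on chromosome 7 was 0.23. The part of GC content in these medians was not tested.

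A run of 10 neighbouring members on chromosome X, chrX:147765991-149984982, was listed at 0 in untreated WT MEFs and had footprints in NIH3T3, among them Luzp4, a leucine zipper protein of the germ line, at 38.8 TPM, Ott, an ovary and testis transcript, at 25.7 TPM, and Gm15128 at 75 TPM. In all, 13 X-linked members that were at least 2-fold higher in NIH3T3 were listed at 0 in all 10 MEF libraries, with 8.17 to 75.0 TPM in untreated NIH3T3, of 57 X-linked members higher in NIH3T3. Of the 13, 11 share sequence with other genes, so that footprints may be spread among copies. These genes were chosen after their values were seen. Rhox5, an X-linked homeobox gene outside this run, was at 497 TPM in NIH3T3 and 0.43 TPM in WT MEFs.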
